A study of Rattus norvegicus with 9 samples.

Results

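The extracellular matrix genes of the liver, together with genes of the hepatic stellate cells and fibroblasts that make most of that matrix, were followed on 9 Affymetrix arrays of rat liver. They are a list of 46 genes, out of 14217 genes that have a probe set of their own on the array. Each gene was represented by its brightest probe set, the one with the highest mean log2 signal over the 9 arrays. All 46 genes have such a probe set, and 37 of them passed a filter that left out the dimmest 40% of probe sets. The 9 that did not pass are Col15a1, Loxl1, Loxl2, Eln, Lum, Postn, Ngfr, Thy1 and Tgfb1. They are described by their values without a test.

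All samples were livers of male Goto-Kakizaki (GK) rats, an inbred strain that becomes diabetic without any treatment. The methods of the study state that rats bought at 5 weeks of age were kept for 7 weeks until diabetes appeared and were then split into 10 rats per group. CUMS rats were housed alone and met varied stressors for 8 weeks (chronic unpredictable mild stress), and control rats lived unstressed over the same time. All rats, controls included, were given repaglinide, a glucose-lowering drug, at 6 mg/kg by gavage before the livers were taken. The arrays CUMS_1, CUMS_2 and CUMS_3 carry the label Major Depression, CUMS_4, CUMS_5 and CUMS_6 the label Mild Depression, and CON_1, CON-2 and CON-3 the label undepression, which gives 3 arrays per group. The sources do not say how the severity labels were given, nor whether an array stands for 1 rat or for a pool, so p-values measure the spread between these samples only.

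Hepatic stellate cells lie between the sinusoidal endothelium and the hepatocytes. At rest they store vitamin A and lay down a thin matrix of collagen IV, laminin and nidogen, and once activated they turn into contractile myofibroblasts that secrete fibrillar collagens, lysyl oxidases and inhibitors of matrix proteases. Portal fibroblasts around the bile ducts and vessels are the other main source of collagen, while hepatocytes themselves make plasma fibronectin.

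The values are MAS 5.0 signals in linear units, scaled to a mean of 500.2 per array after trimming. The median signal of an array lay between 107.2 and 133.4. One control array, CON-3, was unlike the rest. Over the probe sets that passed the filter it correlated with the other arrays at a median of 0.951, against 0.965 to 0.972 for the remaining 8. Its median signal was the highest, and its ratio of 3′ to 5′ actin signal was 2.51, against 3.18 to 5.23 elsewhere. CUMS_2 and CUMS_4 had the highest actin ratios, 5.23 and 4.96. The part of RNA quality in the results was not tested. The main counts and medians, and most single values, are given with and without CON-3. The 9 hepatocyte markers with a probe set were bright on every array, with summed signals of 181816 to 209737 on major-label arrays, 211520 to 233897 on mild-label arrays and 180580 to 218659 on control arrays, the lowest being CON-3.

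CON-3 was the highest of the 9 arrays for 40 of the 46 genes, whereas it was the highest for 22% of all 14217 genes. The exceptions were Col18a1, Fn1, Tgfbi, Timp3, Ngfr and Csrp1. The median gene of the list was 1.5 log2 units brighter on CON-3 than on the mean of the other control arrays. The lowest of the 9 arrays was most often a major-label one, CUMS_2 for 14 genes, CUMS_3 for 11 and CUMS_1 for 7, where these arrays were the lowest for 12.6%, 10.4% and 9.02% of all genes.

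**Figure D1:**
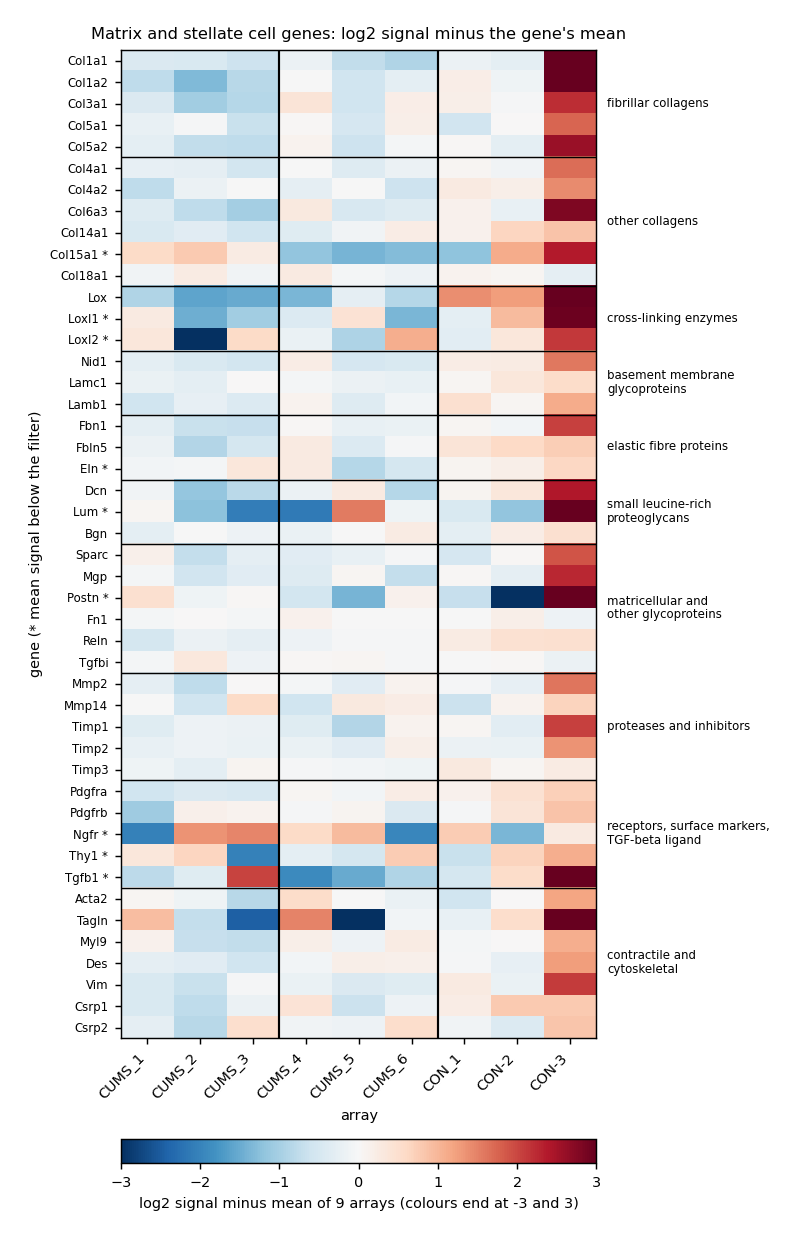
Log2 signal of the 46 genes (rows, grouped by role) on the 9 arrays (columns) as the difference from the mean of that gene, with red for higher and blue for lower values and colours ending at −3 and 3. An asterisk marks genes below the signal filter. The CON-3 column is red for most rows, and Lox, Reln, Fbln5 and Pdgfra are bluer on the CUMS arrays than on each control array or nearly so.

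The 46 genes were mostly lower in CUMS than in control livers, and 0 of them passed the adjusted test. In major-label livers the median log2 fold change against control was −0.84 and 43 genes were lower, where the median of all 14217 genes was −0.021 and 53.2% of them were lower. For 19 of the 46 genes all 3 major-label arrays lay below all 3 control arrays, against 6.91% of all genes, and for 0 genes did they lie above (4.85%). At an unadjusted p under 0.05 in limma, 20 of the 37 tested genes were lower, against 4.17% of all probe sets tested, and 0 were higher (2.59%). The filter uses the mean over all 9 arrays, so a gene could pass it through bright control arrays alone. After Benjamini-Hochberg adjustment over all 18626 probe sets, limma called 0% of them and 0 of the 37, and the smallest adjusted p of the list was 0.282. In bulk liver, fewer cells of a type and less RNA per cell cannot be told apart.

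Without CON-3, the median for major-label livers was −0.34, that of all genes −0.011, and 38 genes were lower (52% of all genes). Every major-label array lay below both remaining controls in 19 genes, now against 11.8% of all genes. These are the 19 above, which leaving out a control array cannot remove. Of the tested genes, 13 were lower at an unadjusted p under 0.05 (2.99% of all probe sets tested). Postn, a dim gene, was the 1 gene with every major-label array above CON_1 and CON-2 (9.58% of all genes). Leaving out CON-3 thus brought the median closer to 0.

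Mild-label livers had a median log2 fold change of −0.67 against control, with 43 genes lower, where all genes had a median of −0.024 and 53.8% were lower. In 9 genes the mild-label arrays all lay below the control arrays (6.82% of all genes), and 11 were lower at an unadjusted p under 0.05 (3.55% of all probe sets tested). Without CON-3 the median was −0.2, 32 genes were lower (51.8% of all genes), the 9 genes stood against 11.5% of all genes, and 4 were lower at an unadjusted p under 0.05 (2.53%). The limma fit called 0 of the 37 after adjustment in either form. Both comparisons use the same control arrays.

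Taking all 6 CUMS arrays together, the median was −0.82 against control and −0.3 without CON-3, with 43 and 36 genes lower (53.8% and 52.6% of all genes). The 6 genes in which every CUMS array lay below every control array were Col4a2, Lox, Nid1, Lamc1, Fbln5 and Reln (2.46% of all genes did so, and 4.75% without CON-3). At an unadjusted p under 0.05, 21 genes were lower (4.86% of probe sets tested), and 12 without CON-3 (2.88%). Again 0 passed the adjusted limma test, with a smallest adjusted p of 0.216 for the list and 0.242 without CON-3.

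**Figure D2:**
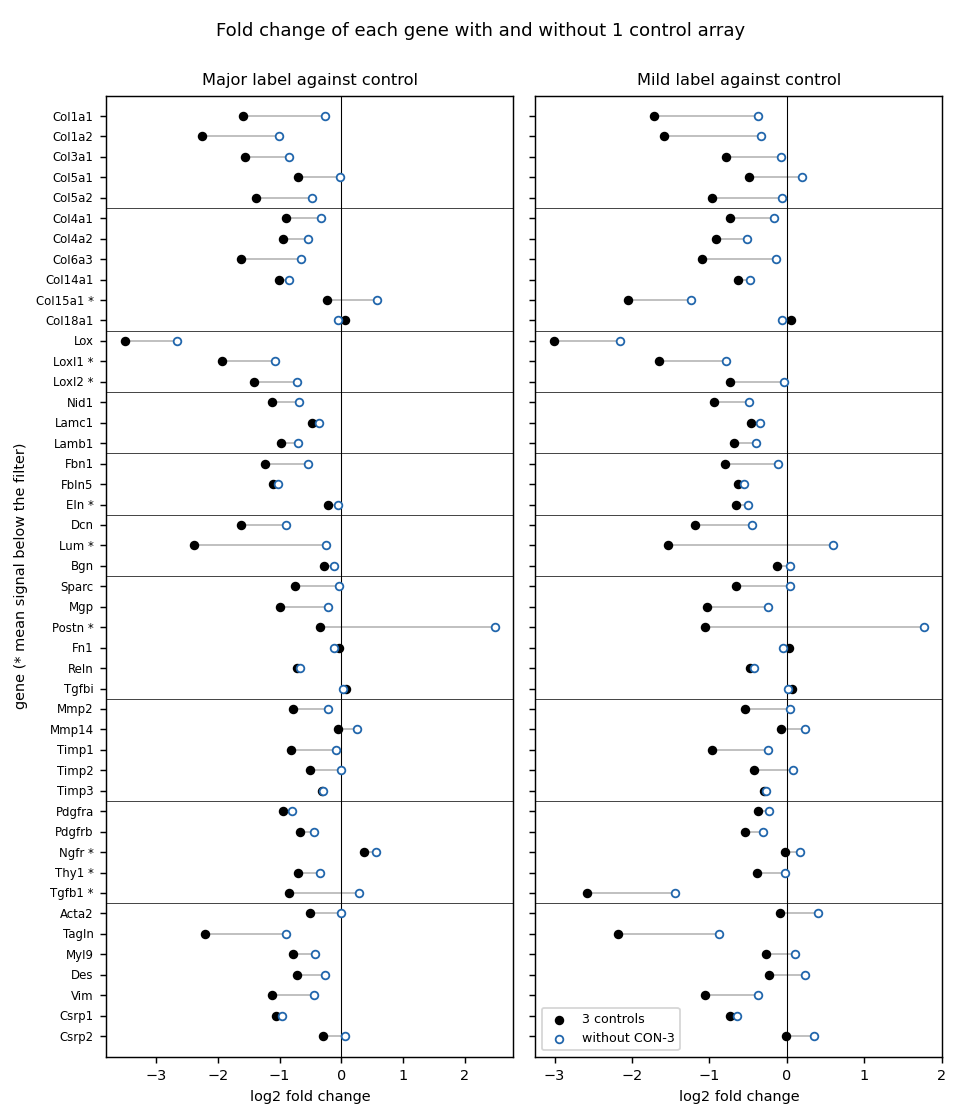
Log2 fold change of each of the 46 genes for major-label CUMS against control (left) and mild-label CUMS against control (right), with all 3 controls (filled) and without CON-3 (open, joined by a line). Long lines are genes whose difference went with CON-3, such as Col1a1, Lum, Tagln and Postn, and short lines are those whose difference did not, such as Reln, Fbln5, Csrp1 and Pdgfra. The horizontal scales of the panels differ.

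The fibrillar collagens, which form the tensile fibres of scar and portal tract, were the group in which CON-3 stood out most among the collagens. All 5 were brightest on that array, by a median of 2.72 log2 units over the other controls. Their median log2 fold change was −1.56 in major-label and −0.97 in mild-label livers, and −0.47 and −0.07 without CON-3. In 4 of the 5 the major-label arrays lay below every control array (6.91% of all genes), and 3 were lower at an unadjusted p under 0.05 (4.17% of all probe sets tested). On second probe sets past the filter, the major-label arrays of Col1a1 and Col5a2 overlapped the controls, and those of Col1a2 did not.

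Col1a2, a chain of type I collagen, had signals of 315, 213 and 300.0 on CUMS_1, CUMS_2 and CUMS_3, 527, 354 and 440.4 on CUMS_4, CUMS_5 and CUMS_6, and 609.9, 491 and 7317 on CON_1, CON-2 and CON-3. CON-3 was 12.0 times as bright as any other array, yet the major-label arrays also lay below both remaining controls and below every mild-label array. The log2 fold change for major label against control was −2.26 ± 0.78 (SE, adjusted p = 0.722 by limma), and −1.01 ± 0.23 without CON-3 (adjusted p = 0.689). For mild label it was −1.58 ± 0.78, and −0.33 ± 0.23 without CON-3, where the arrays overlapped. On a second Col1a2 probe set, which passed the filter, the major-label arrays again lay below every control. There CUMS_1 at 189.4 lay above CUMS_5 at 176.5, so the CUMS groups overlapped.

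Col3a1, which encodes type III collagen of the reticular fibres, had signals of 2162, 1415 and 1599.8 in major-label livers, 3787, 1925 and 3344 in mild-label livers and 3300.1, 2818 and 13435 in control livers. The major-label arrays lay below every control, while 2 of the mild-label arrays were above CON_1. The log2 fold change was −1.56 ± 0.49 for major label and −0.79 ± 0.49 for mild label, and −0.85 ± 0.27 and −0.07 ± 0.27 without CON-3. Col1a1, the other type I chain, had 129 ± 8.7 in major-label, 122 ± 33.5 in mild-label and 934 ± 1350.3 in control livers (mean ± SD, n = 3 each), and its control mean was 154 without CON-3, which alone had 2493. The type V chains Col5a1 and Col5a2, which start fibril assembly, had log2 fold changes of −0.7 and −1.38 for major label, and −0.02 and −0.47 without CON-3. A second Col5a1 probe set passed the filter, with 99.1, 146.7 and 99.6 in major-label and 182.2, 196.2 and 762.7 in control livers. These groups did not overlap, at −1.41, or −0.74 without CON-3.

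The promoter of Col1a2 is shown because Col1a2 was the fibrillar collagen whose major-label arrays lay below every array of both other groups on its brightest probe set. It is 250 bases before and 50 after the RefSeq start (GRCr8, chr4:33518307-33518606, plus strand), with CAGAC or its reverse complement, the short site read by the SMAD factors of TGF-beta signalling, in capitals.

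Col1a2: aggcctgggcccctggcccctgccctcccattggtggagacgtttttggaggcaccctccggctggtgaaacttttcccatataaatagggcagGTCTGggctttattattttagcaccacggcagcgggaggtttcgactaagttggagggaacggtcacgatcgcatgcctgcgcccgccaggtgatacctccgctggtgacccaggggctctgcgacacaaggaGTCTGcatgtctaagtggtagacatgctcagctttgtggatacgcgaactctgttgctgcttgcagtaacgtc

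Of the 46 genes, 29 had a promoter in the RefSeq table. Counting both strands, CAGAC occurred in 13 of the 29 (44.8%), against 13720 of 27457 promoters of the same length. The Sp1 box GGGCGG occurred in 16 of 29 (55.2%), against 34.9% of them. The CArG box, the site of serum response factor in contractile genes, was searched only as CCWWWWWWGG, with W for A or T, and not in variant forms. It occurred in 0 of 29, of which 5 were contractile and cytoskeletal genes, against 1.64% of all promoters. These counts are letter matches only.

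Among the other collagens, 6 genes of networks and fibril surfaces, the median log2 fold change was −0.92 in major-label and −0.83 in mild-label livers, and −0.44 and −0.32 without CON-3. In 4 of the 6 the major-label arrays all lay below control (6.91% of all genes). Type IV collagen, the sheet of the basement membrane, is built from the products of Col4a1 and Col4a2. Col4a2 had 187, 279.7 and 314 in major-label, 262, 317 and 205 in mild-label and 384, 356 and 852 in control livers, so that all 6 CUMS arrays lay below all 3 controls. Its log2 fold change was −0.94 ± 0.33 for major label and −0.92 ± 0.33 for mild label (adjusted p = 0.722 and 0.744 by limma), and −0.54 ± 0.26 and −0.52 ± 0.26 without CON-3. Col4a1 had means of 590.5 ± 65.6, 659 ± 85.7 and 1290.3 ± 953 in major-label, mild-label and control livers (SD, n = 3 each), with log2 fold changes of −0.9 and −0.74, or −0.33 and −0.17 without CON-3. On a second Col4a1 probe set, which passed the filter, CUMS_1 at 309 lay above CON_1 at 297.6.

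The type IV genes lie head to head, and their RefSeq promoter windows share 176 bases on chromosome 16 (GRCr8, 84885471 to 84885646). The window of Col4a1 (chr16:84885347-84885646, plus strand) is shown for that reason, with Sp1 boxes on either strand in capitals.

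Col4a1: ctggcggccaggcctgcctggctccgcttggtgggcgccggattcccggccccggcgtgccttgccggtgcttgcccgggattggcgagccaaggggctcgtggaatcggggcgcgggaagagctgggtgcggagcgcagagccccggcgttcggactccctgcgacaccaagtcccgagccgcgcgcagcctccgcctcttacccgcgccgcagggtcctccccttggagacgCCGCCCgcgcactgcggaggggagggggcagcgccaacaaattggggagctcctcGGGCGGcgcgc

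Col14a1, a fibril-associated collagen of portal and stellate cells, was among the collagens least bound to CON-3. Its signals were 548, 589 and 492 in major-label livers, 582, 696 and 868 in mild-label livers and 818, 1167 and 1361 in control livers. Every major-label array lay below every control, and of the mild-label arrays CUMS_6 alone lay above CON_1. The log2 fold change was −1.01 ± 0.2 for major label and −0.85 ± 0.21 without CON-3 (adjusted p = 0.485 and 0.689 by limma), and for mild label −0.63 ± 0.2 and −0.47 ± 0.21.

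Col6a3, a chain of the beaded type VI filaments, had a log2 fold change of −1.62 for major label and −0.66 without CON-3. Col18a1, the source of endostatin and a collagen that hepatocytes make, had 4522, 5748 and 4524 in major-label, 5872, 4647 and 4327 in mild-label and 5186, 5045 and 4004 in control livers, and here CON-3 was the lowest array. Its log2 fold change was 0.06 ± 0.15 for either label, and −0.06 ± 0.15 without CON-3, so its sign turned with that array. Col15a1, below the filter, had 63.5 ± 11.5, 17.8 ± 1.3 and 112 ± 104 in major-label, mild-label and control livers, and it lay below the median of the array on 8 of 9 arrays. Without CON-3 its control mean was 56.2, and the log2 fold change for major label, −0.23 with all controls, was 0.58.

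The cross-linking enzymes oxidise lysines of collagen and elastin so that fibres become insoluble. Lox, the main lysyl oxidase, had signals of 61.8, 38.4 and 40.6 on the major-label arrays, 44.4, 95.8 and 63.8 on the mild-label arrays and 306, 275 and 1694 on the control arrays. All 6 CUMS arrays were below all controls, and the dimmest control was still well above the brightest CUMS array. On the 6 CUMS arrays Lox lay below the median of the array, so it passed the filter through the controls and its fold change is set against dim signals. The log2 fold change was −3.51 ± 0.6 for major label and −3.01 ± 0.6 for mild label (adjusted p = 0.282 and 0.475 by limma). For major label it was −2.6 when 50 was added to each signal before the logarithm. Without CON-3 it was −2.66 ± 0.39 and −2.16 ± 0.39 (adjusted p = 0.475 and 0.524).

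A further Lox probe set, below the filter, had 40, 46.4 and 20.8 in major-label, 41.1, 44.9 and 55.7 in mild-label and 101.8, 73.9 and 443.7 in control livers, which gave the same order of groups. Loxl1 and Loxl2, related oxidases, lay below the filter. Their log2 fold changes for major label were −1.93 and −1.42, and −1.07 and −0.72 without CON-3, and their groups overlapped.

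The basement membrane glycoproteins were lower in major-label livers in all 3 genes. In each, every major-label array lay below every control (6.91% of all genes). The median log2 fold change was −0.98, or −0.68 without CON-3. For mild label the median was −0.68, or −0.4 without CON-3. Nid1, nidogen, which ties laminin to type IV collagen, had 708, 632 and 594 in major-label, 1011, 618 and 632 in mild-label and 1024, 1037 and 2622 in control livers. All CUMS arrays lay below the controls, CUMS_4 by a narrow margin. The log2 fold change was −1.13 ± 0.33 for major label and −0.94 ± 0.33 for mild label, and −0.68 ± 0.21 and −0.49 ± 0.21 without CON-3 (adjusted p between 0.65 and 0.954 by limma). A second Nid1 probe set gave −0.25 for major label and 0.45 for mild label.

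Lamb1, the laminin beta-1 chain, had 114, 145 and 129 in major-label, 185, 132 and 163 in mild-label and 241, 181 and 374 in control livers. The major-label arrays lay apart from the controls, and CUMS_4 lay just above CON-2. Set against control, major label had a log2 fold change of −0.98 ± 0.27, and −0.7 ± 0.25 without CON-3 (adjusted p = 0.637 and 0.832 by limma). Lamc1, the gamma-1 chain, had means of 406 ± 45.1, 410.5 ± 23.6 and 569.8 ± 100.4 in major-label, mild-label and control livers, with all CUMS arrays below control, though its second probe set gave −0.14 for major label.

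The elastic fibre proteins had a median log2 fold change of −1.1 in major-label and −0.66 in mild-label livers, and −0.54 and −0.5 without CON-3. Fbln5, fibulin-5, which helps elastin assemble, had 135, 82.9 and 105 in major-label, 183, 114 and 147 in mild-label and 198, 230.5 and 252 in control livers. Every CUMS array was below every control, and CON-3 was close to the other controls. On the log2 scale the Fbln5 difference was −1.1 ± 0.26 for major label and −1.02 ± 0.29 without CON-3 (adjusted p = 0.551 and 0.689 by limma), and −0.63 ± 0.26 and −0.55 ± 0.29 for mild label. Fbn1, fibrillin-1 of the microfibrils, had 314, 240.3 and 238 in major-label, 396, 329 and 335 in mild-label and 399, 364 and 1598 in control livers. Its major-label arrays lay below both other groups, and its log2 fold change was −1.23 ± 0.45, or −0.54 ± 0.19 without CON-3. On a second Fbn1 probe set, which passed the filter, CUMS_1 at 224.4 lay above every mild-label array and above CON-2 at 198. That probe set gave −1.11 for major label, or −0.42 without CON-3. Eln, elastin, lay below the array median on all 9 arrays and had a log2 fold change of −0.22, or −0.06 without CON-3.

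The small leucine-rich proteoglycans coat collagen fibrils and hold growth factors. Dcn, decorin, had 308, 148 and 191 in major-label, 292, 403 and 185 in mild-label and 349, 419 and 1766 in control livers. The major-label arrays lay below the controls, CUMS_5 lay between CON_1 and CON-2, and CON-3 was 4.22 times the next array. In log2 units the difference was −1.63 ± 0.54 for major label and −1.19 ± 0.54 for mild label (adjusted p = 0.722 and 0.779 by limma), and −0.89 ± 0.36 and −0.45 ± 0.36 without CON-3. Bgn, biglycan, had 1006, 1227 and 1110.2 in major-label, 1073, 1220.2 and 1456 in mild-label and 1012, 1429.6 and 1710.0 in control livers. Its groups overlapped, with a log2 fold change of −0.28 ± 0.19 for major label, or −0.12 ± 0.18 without CON-3. Lum, lumican, had a signal of 2554 on CON-3 and of 12.3 to 157 on the other 8 arrays, most of them below the array median.

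The matricellular and other glycoproteins went different ways. Reln, reelin, a secreted protein that stellate cells make in the liver, had 808, 1047 and 979 in major-label, 1063, 1146 and 1142 in mild-label and 1383, 1618 and 1640.4 in control livers. The groups stood in 3 separate bands with major label lowest, and CON-3 was about level with CON-2. Against control this came to a log2 fold change of −0.72 ± 0.13 for major label and −0.47 ± 0.13 for mild label (adjusted p = 0.282 and 0.744 by limma), and −0.67 ± 0.15 and −0.42 ± 0.15 without CON-3. A second Reln probe set, which also passed the filter, had 125.7, 167.7 and 205.1 in major-label, 139.2, 155.4 and 158.8 in mild-label and 303.1, 305.3 and 390.6 in control livers. On that probe set too the CUMS arrays all lay below the controls (log2 fold change −1.02 for major label and −1.13 for mild label), while the 2 CUMS groups overlapped.

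The Reln promoter (GRCr8, chr4:13628318-13628617, plus strand) is shown because Reln was the member whose 3 groups did not overlap in any pair on its brightest probe set. It held 4 Sp1 boxes GGGCGG, in capitals, and neither other motif.

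Reln: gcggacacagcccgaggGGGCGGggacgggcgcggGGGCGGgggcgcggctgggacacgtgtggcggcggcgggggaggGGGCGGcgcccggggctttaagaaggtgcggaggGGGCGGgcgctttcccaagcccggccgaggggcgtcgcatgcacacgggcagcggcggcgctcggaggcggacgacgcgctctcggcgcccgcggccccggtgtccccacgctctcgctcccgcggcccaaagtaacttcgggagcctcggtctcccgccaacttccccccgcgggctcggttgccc

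Mgp, matrix Gla protein, an inhibitor of calcification, had 892, 619 and 733 in major-label, 709.5, 961 and 560.4 in mild-label and 951, 772 and 4444 in control livers. Apart from CON-3 the groups overlapped, and the log2 fold change of −1 ± 0.52 for major label was −0.21 ± 0.24 without that array. Fn1, fibronectin, had 18300.1, 18950.1 and 18033 in major-label, 20721, 18713 and 18780.0 in mild-label and 18894, 21223 and 17067 in control livers, again with CON-3 lowest. Its log2 fold change was −0.04 ± 0.1 for major label, and the sign turned without CON-2. Tgfbi, a TGF-beta-induced adhesion protein, had a log2 fold change of 0.08 for major label and was the only other tested gene with a value above 0 in that comparison beside Col18a1. Sparc, a collagen-binding glycoprotein, was at −0.75 for major label and −0.04 without CON-3. On its second probe set, which passed the filter, major-label signals of 128, 240.2 and 234.9 lay below control signals of 323.8, 338.3 and 953.4, at −1.28 and −0.78. Postn, periostin, had 1826 on CON-3 and 1.6 to 36.4 on all other arrays.

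**Figure D3:**
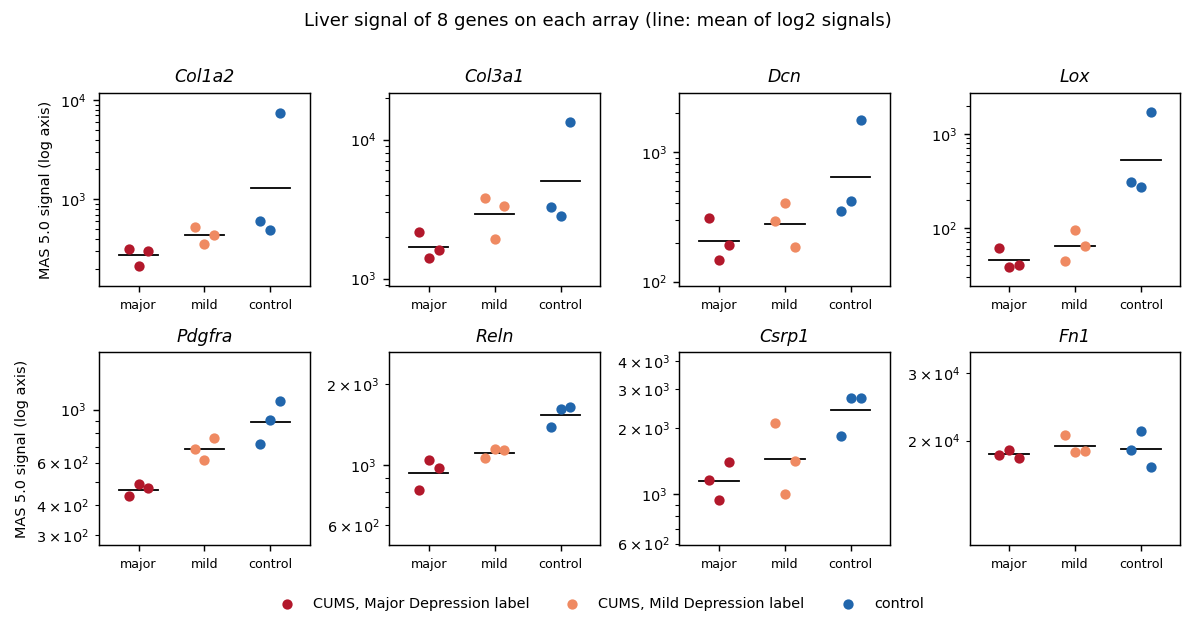
MAS 5.0 signal (logarithmic axes) of 8 genes on each array, for major-label CUMS, mild-label CUMS and control from left to right, with a line at the mean of the log2 signals. Col1a2, Col3a1 and Dcn show CON-3 far above the other controls, Lox and Reln show all CUMS arrays below all controls, and Fn1 shows overlapping groups.

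The proteases and their inhibitors, which set how fast matrix is broken down, gave little beyond CON-3. Their median log2 fold change was −0.51 for major label and −0.43 for mild label, and −0.09 and 0.04 without CON-3. Mmp2, gelatinase A, had 163, 116 and 198 in major-label, 189.6, 155 and 211 in mild-label and 193, 166 and 599 in control livers. The groups overlapped, with a log2 fold change of −0.79 ± 0.42 for major label and −0.21 ± 0.27 without CON-3, and a second Mmp2 probe set gave 0.03. Mmp14, the membrane-bound protease that activates the Mmp2 proenzyme, had 1083, 716 and 1629 in major-label, 717, 1325 and 1274 in mild-label and 697, 1164 and 1723 in control livers. It spread as widely within as between groups (log2 fold change −0.05 ± 0.37, and 0.26 ± 0.37 without CON-3, adjusted p = 0.99 and 0.957 by limma).

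Timp3, the matrix-bound inhibitor, was not highest on CON-3 on its brightest probe set. Its signals were 515, 464 and 596 in major-label, 554, 531 and 517 in mild-label and 697, 590.4 and 669.9 in control livers. All mild-label arrays lay below control, and of the major-label arrays CUMS_3 reached above CON-2. This gave a log2 fold change of −0.32 ± 0.14 for major label and −0.29 ± 0.14 for mild label (adjusted p = 0.738 and 0.782 by limma), and −0.3 ± 0.16 and −0.27 ± 0.16 without CON-3. Its 3 further probe sets were all highest on CON-3, and on 1 of the 2 that passed the filter −0.28 for major label was 0.12 without that array. Timp1, which activated stellate cells secrete, had 1389 on CON-3 and 182 to 359.7 on the other arrays, and Timp2 had 2218 on CON-3 and 688 to 999 on the others.

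Of the receptors, Pdgfra, a receptor for platelet-derived growth factor on mesenchymal cells, had 433, 488 and 471 in major-label, 686, 618 and 760.0 in mild-label and 716, 904 and 1083 in control livers. The major-label arrays lay together below every array of the other groups, and the mild-label arrays overlapped the controls. For major label the log2 fold change was −0.94 ± 0.16 against control, and −0.8 ± 0.16 without CON-3 (adjusted p = 0.282 and 0.512 by limma). For mild label it was −0.37 ± 0.16, and −0.23 ± 0.16 without CON-3. Against mild label, major label stood at −0.57 ± 0.16, the 1 member under an unadjusted p of 0.05 in that comparison, though its adjusted p was 1.0.

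Pdgfrb, the beta receptor of stellate cells and pericytes, had 61.8, 142 and 139.5 in major-label, 125, 136 and 94.7 in mild-label and 125, 169 and 232 in control livers. The groups overlapped (log2 fold change −0.67 ± 0.36 for major label, or −0.44 ± 0.39 without CON-3), and 2 further Pdgfrb probe sets gave 0.54 and 1.63, so no direction can be given for this gene. Ngfr, Thy1 and Tgfb1, the nerve growth factor receptor of stellate cells, a surface marker of portal fibroblasts and the main fibrogenic cytokine, lay below the filter. Ngfr and Thy1 were below the array median on all 9 arrays. Tgfb1 had 145 on CON-3 and 3.6 to 55.6 on the others.

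The contractile and cytoskeletal genes had a median log2 fold change of −0.79 for major label and −0.27 for mild label, and −0.42 and 0.11 without CON-3. Csrp1, a LIM-domain protein of the actin cytoskeleton, had 1163, 942 and 1400.3 in major-label, 2102, 1009.8 and 1423 in mild-label and 1845, 2744 and 2736 in control livers. The major-label arrays lay below all controls and CUMS_4 lay above CON_1. Major label against control gave a log2 fold change of −1.06 ± 0.26, and −0.96 ± 0.29 without CON-3 (adjusted p = 0.562 and 0.706 by limma). Vim, vimentin, the intermediate filament of mesenchymal cells, had 1254, 1083 and 1674 in major-label, 1507, 1288 and 1339.8 in mild-label and 2084, 1517 and 7391 in control livers. Its mild-label arrays lay below every control and CUMS_3 did not, and the log2 fold change for major label was −1.12 ± 0.45, or −0.44 ± 0.2 without CON-3.

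Myl9, the regulatory light chain of smooth muscle myosin, had 574, 329 and 314 in major-label, 600.5, 472 and 622 in mild-label and 512, 531 and 1133 in control livers. CUMS_1 lay among the controls, and the log2 fold change for major label was −0.79 ± 0.32, or −0.42 ± 0.26 without CON-3. Acta2, the smooth muscle actin that marks activated stellate cells, had 106, 93.6 and 57 in major-label, 149, 101 and 88.9 in mild-label and 66.9, 104 and 230.2 in control livers. It had a log2 fold change of −0.5 for major label, or −0.01 without CON-3, and lay below the array median on 7 of 9 arrays. Tagln, transgelin of smooth muscle, had 1416 on CON-3 and 7.2 to 233 on the others. Des, desmin, lay lower in major-label livers, at 129 ± 15.3, than in mild-label livers, at 181 ± 16.8, and control livers, at 238 ± 144 (155 without CON-3). Csrp2, a LIM-domain protein of stellate cells, had a log2 fold change of −0.3 for major label and 0.06 without CON-3.

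Between the CUMS groups, major-label livers had the lower mean log2 signal for 36 of the 46 genes, where 51.3% of all genes did, and the median log2 fold change of major over mild label was −0.2. In 5 genes, Col1a2, Fbn1, Reln, Pdgfra and Des, all major-label arrays lay below all mild-label arrays (4.95% of all genes), and in Col15a1 and Tgfb1, both below the filter, they lay above (4.59%). Col1a2, Fbn1 and Reln each had a second probe set past the filter, and on it the CUMS groups overlapped. They also overlapped on a second Col15a1 probe set, below the filter, with 1.7, 4 and 18.7 in major-label and 10.8, 11.4 and 2.5 in mild-label livers. Limma called 0 of the 37 tested genes after adjustment, and 1, Pdgfra, was lower at an unadjusted p under 0.05 (1.32% of probe sets tested).

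Under the thresholds of the study, which take unadjusted p-values under 0.05, here from a test of group means with equal variances, and ratios no smaller than 1.5 or no larger than 0.5 without any signal filter, 4 members were lower in major-label livers, namely Col14a1, Lox, Fbln5 and Csrp1, against 0.699% of 31042 probe sets. Lox alone was lower in mild-label livers (0.876%), and Lox, Nid1 and Dcn were lower in all CUMS livers (0.883%). In these 3 comparisons 0 members were higher. Between the labels, Col15a1, a dim gene below the signal filter used elsewhere, was higher in major-label livers on its brightest probe set, as were 336 of the 31042 probe sets. These counts were taken with all control arrays.

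Of the 46 genes, 23 had further probe sets of their own, 26 in number, and 23 of these had the same sign as the brightest probe set for major label against control. Among the 18 that passed the filter, 16 did. The exceptions that passed were those of Mmp2 and Pdgfrb given above. A shared sign did not always mean separate groups. Among genes whose major-label arrays all lay below control on the brightest probe set, Col1a1, Col4a1, Col5a2, Fbn1, Lamc1 and Nid1 overlapped on a second one past the filter. Col1a2, Col14a1 and Reln did not.

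Other genes of the same processes were read from lists. Of 42 further matrix genes, 32 were lower in major-label livers with a median log2 fold change of −0.43, or 25 and −0.14 without CON-3. Of all genes, 53.2% were lower, or 52% without CON-3. Of the 25 that passed the filter, 8 were lower at an unadjusted p under 0.05 (4.17% of all probe sets tested), or 4 without CON-3 (2.99%). Plat, tissue plasminogen activator, had 143.2, 212.6 and 207.3 in major-label, 263.6, 204.3 and 257.1 in mild-label and 525.4, 268.2 and 830.5 in control livers (log2 fold change −1.4, or −1.02 without CON-3), and every CUMS array lay below every control. Col8a1, a network collagen, had 14.8, 86.3 and 14.7 in major-label, 93.9, 117.3 and 78.6 in mild-label and 123, 113 and 253 in control livers. It lay below the array median on 7 of 9 arrays and had overlapping mild-label and control signals, and with the major-label signals so dim no fold is given. Of 19 further stellate cell and portal fibroblast genes, 16 were lower with a median of −0.45, or 16 and −0.35 without CON-3. Of the 14 that passed the filter, 6 were lower at an unadjusted p under 0.05, or 4 without CON-3, against the same shares. Igfbp7 had 1902.4, 1701.6 and 1967.9 in major-label, 2726.9, 2145.4 and 1895.7 in mild-label and 2933.6, 2839.6 and 5429.6 in control livers (−0.94, or −0.64 without CON-3), and Igfbp3, the main carrier of insulin-like growth factors in blood, stood at −1.14, or −0.82 without CON-3. After adjustment limma called 0 in either list.

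The remaining lists gave less. Their counts for major label stand against 53.2% of all genes lower, or 52% without CON-3. At an unadjusted p under 0.05, 4.17% of all probe sets tested were lower, or 2.99% without CON-3. Of 18 TGF-beta signalling genes, 14 were lower, with a median of −0.12, or 13 and −0.06 without CON-3, and 1 was under an unadjusted p of 0.05 either way. That gene was Ltbp1, which anchors latent TGF-beta in the matrix, with 201.6, 216.1 and 207.8 in major-label, 331.2, 233.4 and 216.5 in mild-label and 337.2, 348.8 and 572.6 in control livers (log2 fold change −0.97, or −0.72 without CON-3), and Skil, a repressor of SMADs, was next at −0.3, or −0.21 without CON-3. Of 14 smooth muscle genes, 13 were lower, with a median of −0.4, but 7 without CON-3, with a median of −0.02. The leading ones were Actn1 and Tpm4, at −0.45 and −0.71, or −0.35 and −0.27 without CON-3. Of 15 collagen-processing genes, 12 were lower with a median of −0.24, or 10 and −0.07 without CON-3, and 0 were lower at an unadjusted p under 0.05. P4ha2, a prolyl hydroxylase of procollagen, was higher on every CUMS array, with 622.9, 494 and 576.8 in major-label, 548.7, 556.3 and 528.5 in mild-label and 445.5, 394 and 440.6 in control livers (log2 fold change 0.4), and Ppib, a procollagen chaperone, stood at −0.24. Limma called 0 of these genes after adjustment.

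Marker lists of the cell types were read on each array as the mean log2 signal relative to the mean of CON_1 and CON-2. On CON-3 the 8 markers of activated stellate cells, all members of the list, were 3.57 higher on average and all were highest there. Their differences ran from 1.47 for Acta2 to 8.49 for Postn. Postn, below the filter and at 1.6 on CON-2, raised that average. The 6 bile duct markers with a probe set were also all highest on CON-3, by 2.24 on average, with summed signals of 728 to 1265 on major-label arrays, 952 to 1154 on mild-label arrays, and 9341 on CON-3 against 1041 and 1121 on the other controls. Most of that sum was Spp1, osteopontin, with 7739.7 on CON-3 and 124.3 to 205.6 on the others, a gene that other cell types also use, while Krt7 and Cldn4 lay below the array median on every array. Of the 5 adipose markers, 2 were highest on CON-3. Fabp4 had 3549.8 there and 40 to 120.2 elsewhere, while Adipoq, Plin1 and Lep lay below the array median on every array. Smooth muscle genes were 1.18 higher on CON-3, endothelial markers 0.52 and Kupffer cell and macrophage markers 0.5 higher, while the difference for hepatocyte markers was −0.31. Their part in the CON-3 values was not tested.

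The 9 quiescent stellate cell markers with a probe set, 3 of which are members, had summed signals of 2755 to 3128 in major-label, 2987 to 3568 in mild-label and 3587 to 4909 in control livers. The CUMS groups overlapped each other, and both lay below the controls, but without Reln, a member, CUMS_6 at 2426 lay above CON_1 at 2204. By mean log2 signal CON-3 differed from the other controls by 0.08, and by 0.39 without Gfap, a dim gene that was low on CON-3. Without the 3 members that difference was −0.23. CON-3 and CON_1, the latter at −0.22, then both lay below CUMS_6 at −0.14, so the separation of CUMS and control arrays was lost. Within the list Ngfr lay below the array median on all 9 arrays and Gfap on 8, whereas Lrat, Reln, Cygb and Lhx2 lay above it on all. Kupffer cell and macrophage markers were also on the lower side, with all 6 measured genes lower in major-label livers (median log2 fold change −0.48) and overlapping summed signals of 11024 to 16600 in major-label, 11023 to 16142 in mild-label and 15198 to 18887 in control livers. So were 4 of 5 mesothelial markers, with summed signals of 476 to 556 in major-label, 466 to 651 in mild-label and 524 to 890 in control livers, and with Upk1b below the array median on every array. Endothelial markers were not, with 3 of 9 lower and a median of 0.1. Of all genes, 53.2% were lower in major-label livers. The part of these cell types in the differences between groups was not tested.

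**Figure D4:**
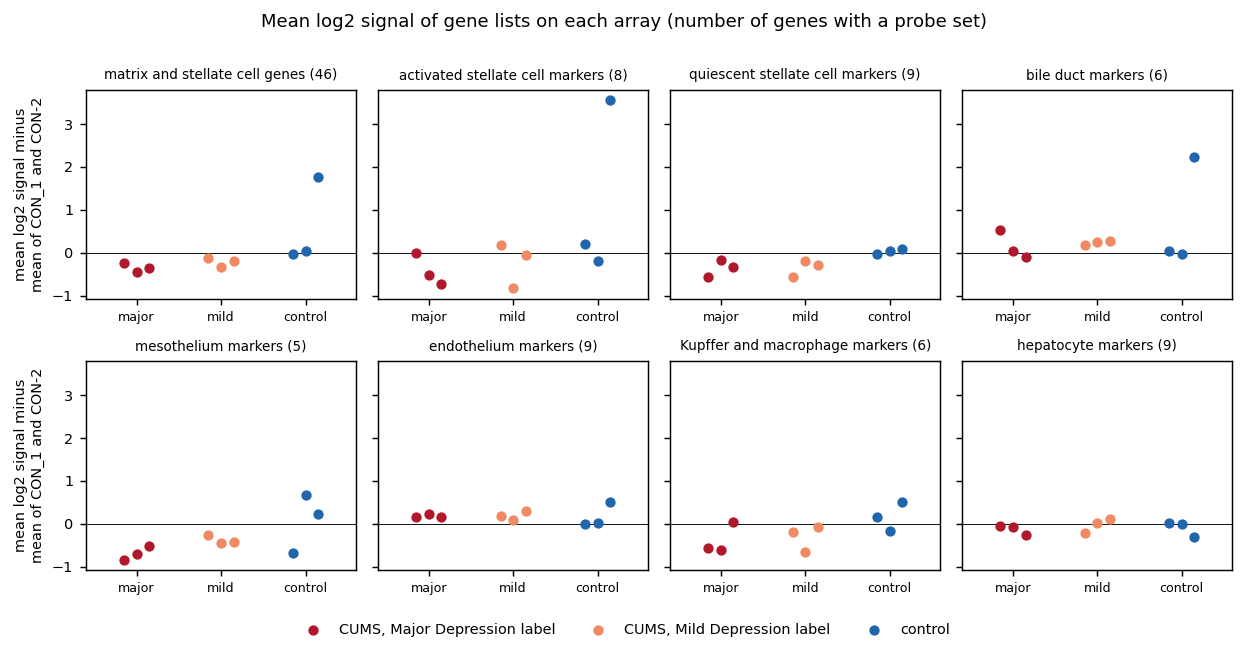
Mean log2 signal of the 46 genes and of 7 cell marker lists on each array, relative to the mean of CON_1 and CON-2, for major-label CUMS, mild-label CUMS and control from left to right. CON-3 stands apart for the 46 genes, the activated stellate cell markers and the bile duct markers, and much less so for the quiescent stellate cell markers, whose mean depends on a few dim genes.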

How the data were processed

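Liver RNA was labelled with a 3′ in vitro transcription kit and hybridised to Affymetrix rat arrays. The authors normalised the scans with MAS 5.0, and the deposited values are signal intensities on a linear scale. The columns of all 9 samples were used. The 57 control probe sets were left out of 31099, 586 signals below 1 were set to 1, and values were put on the log2 scale. GEO's platform annotation gave 1 gene symbol to 20826 probe sets, several to 436 and none to 9780. Probe sets with a mean log2 signal above 6.07 were kept (18626), and the 3 groups were fitted together in R 4.3.3 with limma 3.58.1 (lmFit and eBayes with a trend), with Benjamini-Hochberg adjustment over all probe sets kept and a threshold of 0.05. MAS 5.0 subtracts mismatch signal, which makes dim probe sets noisy. Fold changes are ratios of geometric means. SDs are of linear signals.

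The list of genes, the role groups and the other lists were chosen with earlier results of these data known. In each role group values on every array are given for the 2 members with the smallest p in major label against control and for the brightest, and other members where they mark a range or an exception. From each list of other genes the 2 with the smallest p are named. The number of arrays limits the precision. Replicate numbers were not treated as pairs in the main fit. The residuals of same-numbered major-label and control arrays correlated at 0.003, −0.049 and 0.14. CUMS_3 correlated best with CON-3, its own number, whereas CUMS_1 did so with CON-2 and CUMS_2 with CON_1. So few arrays cannot show whether pairs existed. Promoters came from a RefSeq table (GRCr8), matched by symbol and gene ID.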

Additional observations from a re-analysis of the deposited data

How the results depend on the processing

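Across 39 results and 674 alternative values (quantile normalization, centring, log2(signal + 50), no or a stricter signal filter, no variance trend, array weights, other fits, and each array left out), 657 counted as unchanged and 0 members were called by limma under any of them. Unchanged meant the same sign for a single gene and an equal or similar count. For a median it meant a shift smaller than the spread between arrays of a group. CON-3 widened that spread, so a median much weaker without CON-3 could still count as unchanged. The test of the study after adjustment also called 0 members. Centring on the array median turned Fn1 to 0.01 and Mmp14 to 0, and gave 1 probe set called in mild label and 1 in all CUMS against control, neither a member. Array weights gave −0.01 for Col18a1 and 0.07 for Mmp14. The test of the study, adjusted, called 1 probe set in major label against control. Without CUMS_2, Col18a1 was −0.06 and Mmp14 0.25, without CON-2 Fn1 was 0.04, and without CON-3 Col18a1 was −0.06 and Mmp14 0.26. The mean of all probe sets gave 0.5 for Pdgfrb. With a lower fold limit of 0.667, 7 members passed the thresholds of the study in major label, 2 in mild label and 10 in all CUMS. All of these were lower, as were 1.31%, 1.4% and 1.8% of all probe sets. In major against mild label 1 member was lower (0.95% of all probe sets). There 1 member, Col15a1, was higher, as were 336 of the 31042 probe sets. Leaving out 1 array at a time, the median of the 46 genes ranged from −1.16 to −0.34 for major label, −0.94 to −0.2 for mild label, −1.07 to −0.3 for all CUMS and −0.25 to −0.15 for major against mild label, while Col18a1 ranged from −0.06 to 0.12, Fn1 from −0.12 to 0.04 and Mmp14 from −0.39 to 0.26 for major label, and the weakest median in the first 3 was the one without CON-3. The replicate block on numbers 1 to 3 in major label and control called 0 probe sets, with 1361 at an unadjusted p under 0.05. Medians over the members past the filter only, an alternative chosen after seeing the data, kept their sign, and the quiescent stellate cell list without some genes was also added then.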
